A study of Mus musculus with 6 samples.

Results

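The transcripts of 10 genes were followed in cultured mouse astrocytes: those of the metallothioneins Mt1, Mt2 and Mt3, the transcription factor NRF2 (gene Nfe2l2), and the antioxidant genes Nqo1, Gclc, Gclm, Txnrd1, Srxn1 and Slc7a11. They were chosen by gene name, with earlier results of these data known. Each of the 10 symbols matched 1 of the 55357 genes in the deposited table. Primary cortical astrocytes from C57BL/6 mouse embryos were transfected with a plasmid that expresses FLAG-tagged BRAF K499E from the CMV promoter (KE, n = 3), and untransfected astrocytes served as controls (NT, n = 3). RNA was taken 48 hours after transfection and sequenced from stranded mRNA libraries. The culture medium that the study describes contains B-27 supplement, a source of antioxidants, and the growth factor HB-EGF. The CMV promoter is active in many cell types, and NT received neither the plasmid nor the transfection, so effects of BRAF KE and of transfection itself cannot be told apart in these samples. The labels number the samples of each group 1 to 3 without saying whether they were separate cultures, so the p-values measure only the spread between these samples.

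NRF2 is held at a low level by KEAP1, which presents it for degradation. When cysteines of KEAP1 are oxidized or modified, NRF2 escapes, pairs with a small MAF protein and binds antioxidant response elements (AREs) near genes for glutathione synthesis, thioredoxin recycling and quinone reduction. Metallothioneins are small, cysteine-rich proteins that bind zinc and copper, and their main regulator is the zinc-sensing factor MTF1, which binds metal response elements (MREs). Astrocytes contain high metallothionein levels and supply neurons with glutathione precursors. Both groups of genes are commonly read as signs of oxidative or metal stress.

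In KE, 6 of the 10 transcripts were higher and none was lower. The largest rises were those of Nqo1, Slc7a11, Srxn1 and Gclm, which were 4.29, 3.53, 2.78 and 1.87 times their NT means. Nfe2l2 and Txnrd1 rose by less, to 1.30 and 1.18 times the NT mean. Gclc and the 3 metallothioneins did not pass the test. A gene was called when its adjusted p was under 0.05 in limma, fitted to log2(normalized count + 1) over the 15280 genes with a mean of at least 10, with Benjamini-Hochberg adjustment. Of all tested genes, 25.3% were called higher in KE and 26.0% lower, and the 3 KE values did not overlap the 3 NT values in 59.9% of them. Among the 10 transcripts, 6 were without overlap. A call together with a log2FC of at least 0.5 was met by 12.2% of all tested genes, and by 4 of the 10, namely Nqo1, Slc7a11, Srxn1 and Gclm. For a single gene, 3 samples against 3 allow an exact two-sided permutation p of 0.1 at the lowest.

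**Figure D1:**
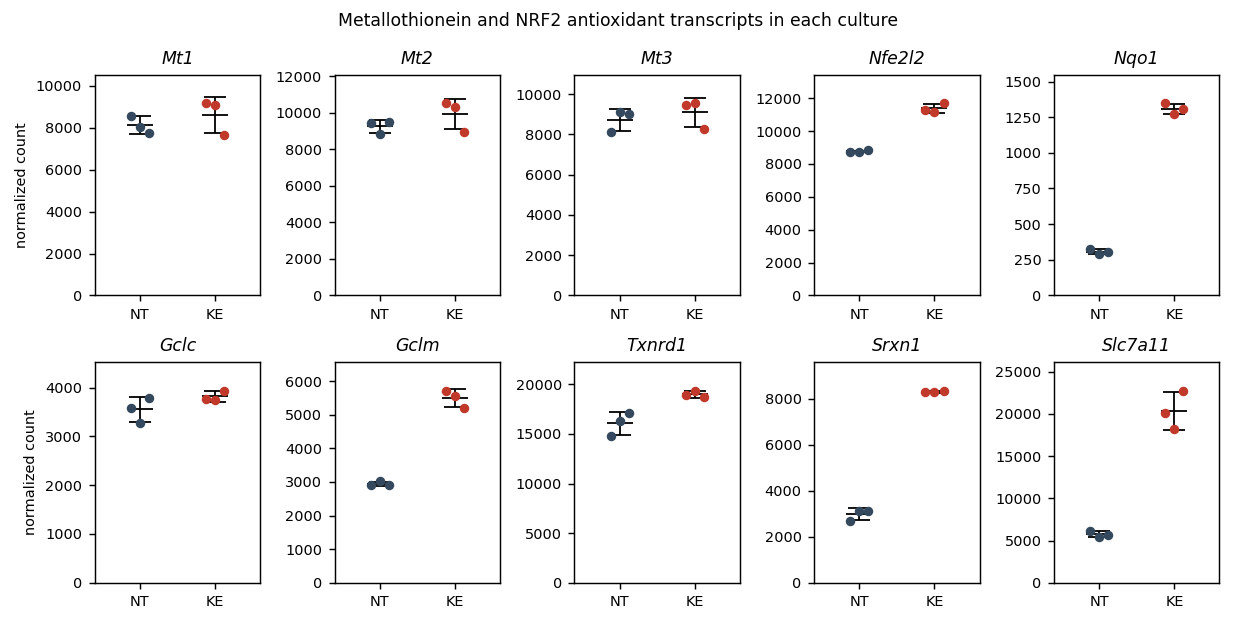
Normalized count of each of the 10 transcripts (vertical axes, from 0) in the 3 NT and 3 KE samples, each point being 1 sample, with the mean and the SD as a bar. The 2 groups are apart for Nfe2l2, Nqo1, Gclm, Txnrd1, Srxn1 and Slc7a11, and overlap for Gclc and the 3 metallothioneins.

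The labels were checked on Braf, the transfected gene, whose lowest KE value was 36.9 times its highest NT value. The approximate depth was 24489700 to 34146300 reads, estimated from the steps between low values, with KE replicate 2 the lowest. Of 10 astrocyte markers, 6 were called higher in KE, among them Gfap and Slc1a2, while Gja1 (log2FC -0.46) and Fgfr3 (-0.23) were called lower and Aqp4 and S100b were not called. Their summed level was 150288 to 152751 normalized counts in KE and 109516 to 114729 in NT, and S100b was low in all samples, at 11.8 to 31.5. Markers of other cells also moved with the groups. All 12 microglia and macrophage markers were lower in KE, with a summed level of 3392 to 5101 against 36394 to 42899.5 in NT and a median log2FC of -3.34. All 7 tested oligodendrocyte lineage markers were lower as well, with a median log2FC of -0.55 and summed levels of 27105 to 31875 in KE and 35921 to 36217 in NT. Neuron markers were mixed, with 1 of 6 tested higher, 2 lower and a median log2FC of -0.04. Their sum, 6704 to 7116 in KE and 8737 to 9395 in NT, was mostly that of Map2, with means of 4965 and 7077, and Tubb3 was called higher (0.43). Those of fibroblasts and vessels were mixed too, with 2 of 8 tested higher, 4 lower, a median of -0.42 and sums of 2693 to 2813 and 3304 to 4505. Most of that gap was Acta2, with means of 651 and 1694, while Col1a2 (0.37) and Lum (0.39) were called higher. No marker was listed at 0 in all samples. In such bulk samples, fewer cells of a type and less RNA per cell cannot be told apart, and the part of these shifts in the results below was not tested.

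Nfe2l2 (ENSMUSG00000015839) spans positions 75504739 to 75534985 of chromosome 2 (minus strand, GRCm39, as for all positions given). Samples 1 to 3 had 11312, 11157 and 11686 normalized counts in KE and 8757, 8707 and 8819 in NT. Every KE value was above every NT value, and the samples of each group lay close together. On average KE had 11385 ± 272 and NT 8761 ± 56.3 (SD, n = 3 each), which gave a log2FC of 0.38 (SE 0.05, adjusted p = 9.5e-05 from limma). The transcript level does not measure the NRF2 protein, which is set largely by its degradation.

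Slc7a11 (ENSMUSG00000027737) encodes xCT, the cystine carrier of system xc-, which brings in cystine in exchange for glutamate and so feeds glutathione synthesis. The gene spans 49846975 to 50398070 on the minus strand of chromosome 3. KE samples had 20114, 18166 and 22762 normalized counts, and NT samples 6187, 5441 and 5663. The lowest KE value was 2.94 times the highest NT value, and among the 10 transcripts its KE samples were the most scattered, with an SD of 11.3% of the mean. The means of 20348 ± 2307 and 5764 ± 383 (SD, n = 3 each) gave a log2FC of 1.82 (SE 0.08, adjusted p = 3.0e-08 from limma). Its partner Slc3a2, the heavy chain that carries xCT to the membrane and serves other amino acid carriers too, was 12802 ± 273 in KE and 6531 ± 255 in NT (log2FC 0.97).

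Glutathione is made from cysteine in 2 steps, and the first is carried out by glutamate-cysteine ligase, a complex of the catalytic subunit GCLC and the modifier subunit GCLM. The modifier raises the affinity of the enzyme for glutamate and eases its inhibition by glutathione. Gclm (ENSMUSG00000028124, chromosome 3, plus strand, 122039126 to 122065061) was 5714, 5556 and 5200.4 in KE and 2893, 3016 and 2897 in NT, so that the groups were well apart. The means were 5490.2 ± 263 and 2935 ± 69.7 (SD, n = 3 each), with a log2FC of 0.90 (SE 0.06, adjusted p = 3.1e-07 from limma). Gclc (ENSMUSG00000032350, chromosome 9, plus strand, 77661797 to 77701770) was 3775, 3743 and 3937 in KE and 3587, 3280.2 and 3791 in NT. Here the groups overlapped, since NT replicate 3 was above KE replicates 1 and 2. Its log2FC was 0.11 with a 95% interval from -0.03 to 0.25 (adjusted p = 0.188 from limma), an interval that leaves out a rise as large as that of Gclm. The ratio of Gclm to Gclc within a sample was 1.51, 1.48 and 1.32 in KE and 0.81, 0.92 and 0.76 in NT, without overlap. These are ratios of counts, not of molecules, because the transcripts differ in length. Gss, which encodes glutathione synthetase for the second step, rose from 824 ± 74.96 to 1468 ± 92.9 (SD, n = 3 each, log2FC 0.83).

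Nqo1 (ENSMUSG00000003849) encodes a quinone reductase that transfers 2 electrons at once and is the most used reporter of NRF2 activity. It spans 108113835 to 108129934 on the minus strand of chromosome 8. KE samples had 1347, 1276 and 1304 normalized counts, and NT samples 325, 289 and 302. Of the 10 transcripts it had the largest log2FC, and its lowest KE value was 3.93 times its highest NT value. The means were 1309 ± 35.9 and 305 ± 17.95 (SD, n = 3 each), with a log2FC of 2.10 (SE 0.08, adjusted p = 1.3e-08 from limma), and 1.19% of all tested genes had a larger log2FC.

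Srxn1 (ENSMUSG00000032802) encodes sulfiredoxin, which restores over-oxidized peroxiredoxins, and lies on the plus strand of chromosome 2 from 151947436 to 151957687. KE samples had 8273, 8265 and 8343 normalized counts, and NT samples 2689, 3134 and 3112. The KE samples agree closely, with an SD of 0.52% of the mean, and all stand above NT. The log2FC was 1.48 (SE 0.07, adjusted p = 2.9e-08 from limma). Txnrd1 (ENSMUSG00000020250, chromosome 10, plus strand, 82669785 to 82733546), which encodes the cytosolic thioredoxin reductase, was 18912, 19357 and 18705 in KE and 14836, 16319.7 and 17102 in NT. The groups did not overlap, but the lowest KE value was only 1.09 times the highest NT value. Its log2FC was 0.24 (SE 0.06, adjusted p = 0.0076 from limma). The ratio of Srxn1 to Txnrd1 was 0.44, 0.43 and 0.45 in KE and 0.18, 0.19 and 0.18 in NT.

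**Figure D2:**
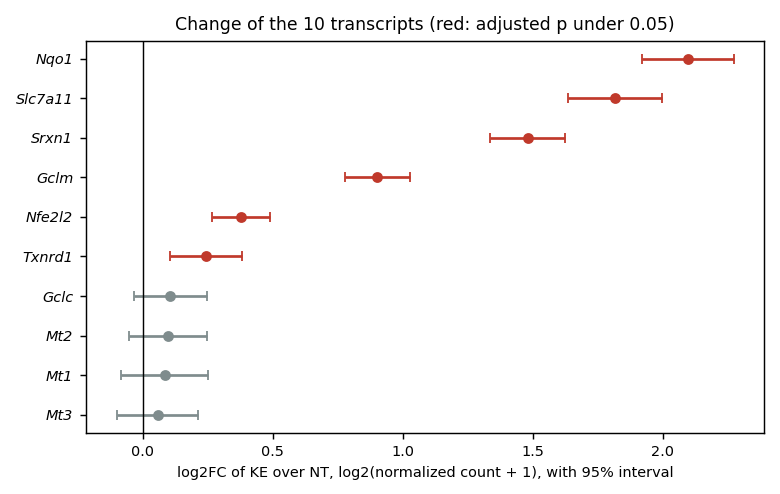
The log2FC of KE over NT for the 10 transcripts on the log2(normalized count + 1) scale (horizontal axis), with its 95% interval from limma as a bar, n = 3 samples per group. The intervals of Gclc and the 3 metallothioneins include 0, and the highest upper bound among these 4 is 0.25.

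The metallothionein genes lie next to each other on the plus strand of chromosome 8, Mt3 (ENSMUSG00000031760) from 94879220 to 94881088, Mt2 (ENSMUSG00000031762) from 94898819 to 94900207 and Mt1 (ENSMUSG00000031765) from 94905710 to 94906955. Mt1 and Mt2 are expressed in most tissues and induced by zinc, glucocorticoids and inflammation, whereas Mt3 is found mainly in the brain and responds little to these inducers. Mt2 was 10527, 10305 and 8975 in KE and 9459, 8864 and 9505 in NT. Mt1 was 9162, 9074 and 7640.1 in KE and 8574, 8031 and 7744 in NT. Mt3 was 9463, 9542 and 8263 in KE and 8105, 9091 and 9007 in NT. In all 3 genes KE replicates 1 and 2 were above every NT sample, and KE replicate 3 fell within or below the NT values. The log2FC was 0.10 for Mt2 (95% interval -0.05 to 0.25, adjusted p = 0.262), 0.08 for Mt1 (-0.08 to 0.25, adjusted p = 0.376) and 0.06 for Mt3 (-0.10 to 0.21, adjusted p = 0.534), all from limma. Without KE replicate 3, Mt1 and Mt2 were called higher, each with a log2FC of 0.17 and with adjusted p of 0.049 and 0.040, so that 8 of the 10 transcripts were called. Over all alternatives, the adjusted p ranged from 0.049 to 0.738 for Mt1, from 0.040 to 0.598 for Mt2 and from 0.153 to 0.976 for Mt3.

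Mt1 and Mt2 are alike in sequence, and Salmon divides reads that fit both. Their ratio, Mt1 to Mt2, was 0.87, 0.88 and 0.85 in KE and 0.91, 0.91 and 0.81 in NT, and so overlapped. Counts of the 3 metallothioneins together made up 0.094%, 0.094% and 0.081% of all normalized counts in KE and 0.086%, 0.085% and 0.086% in NT. All 10 transcripts together made up 0.319%, 0.315% and 0.316% in KE and 0.215%, 0.216% and 0.222% in NT. Mt4, the fourth metallothionein gene, which belongs to stratified epithelia, was listed at 0 in all samples.

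**Figure D3:**
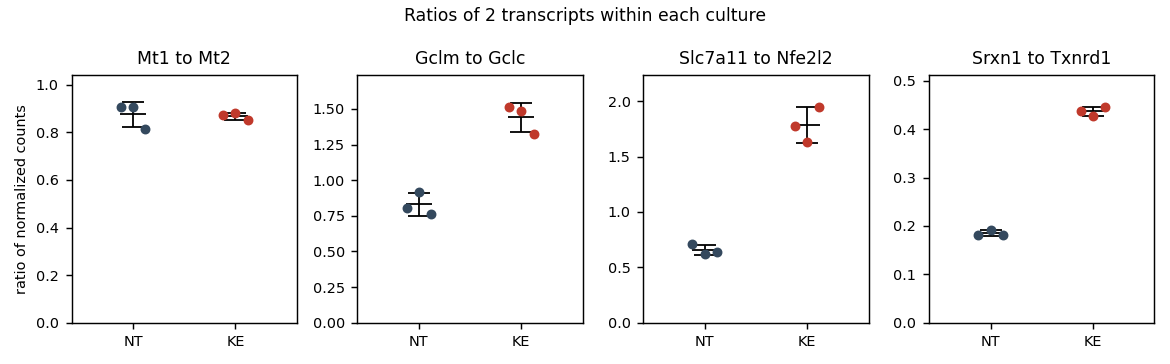
Ratio of the normalized counts of 2 transcripts within each sample (vertical axes, from 0), with points for the 3 NT and 3 KE samples and bars for the mean and SD. The ratios of Gclm to Gclc, Slc7a11 to Nfe2l2 and Srxn1 to Txnrd1 are higher in each KE sample than in each NT sample, and that of Mt1 to Mt2 overlaps.

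To compare levels between genes, each normalized count was divided by the length of the gene's canonical transcript in Gencode vM39. On this scale, in normalized counts per kilobase, the metallothioneins were the most abundant in NT, with Mt2 at 12402 ± 478, Mt1 at 10651 ± 553 and Mt3 at 10098 ± 632 (SD, n = 3 each). Mt1 and Mt3 overlapped in NT, and in KE Mt2 also overlapped with Mt1. Txnrd1 followed at 4838 ± 346 and Nfe2l2 at 2438 ± 15.7. Gclc (1031 ± 74.6), Slc7a11 (625 ± 41.5), Gclm (462 ± 11.0), Srxn1 (413 ± 34.8) and Nqo1 (114 ± 6.72) came last, in an order in which no neighbours overlapped. In KE, Slc7a11 at 2205 ± 250.03 and Srxn1 at 1151 ± 5.97 stood above Gclc at 1108 ± 30.2. With the length of all annotated exons instead, the order was the same in NT, and in KE Gclm came before Gclc.

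Sequences before the transcript starts were taken from RefSeq (GRCm38.p6), where 9 of the 10 genes had an entry, and were placed on GRCm39 by an exact match. The core of the ARE, TGACNNNGC on either strand, was searched in the 250 bases before each start. It was found for 4 genes, namely Gclm, Nfe2l2, Mt2 and, before 1 of its 3 starts, Txnrd1, and 10.2% of all 32851 such windows contain it. The 4 matches are shown because they include transcripts that rose in KE and 1, Mt2, that was not called. Capitals mark the core, read 5′ to 3′ along the strand of the gene, and in Gclm and Txnrd1 it is on the opposite strand:
Gclm, chr3:122039062-122039090, plus strand, before the annotated gene: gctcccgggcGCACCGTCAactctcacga
Nfe2l2, chr2:75535229-75535257, minus strand, before the annotated gene: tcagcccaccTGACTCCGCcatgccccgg
Txnrd1, chr10:82694938-82694966, plus strand, inside the gene in no annotated exon: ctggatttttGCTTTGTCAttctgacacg
Mt2, chr8:94899157-94899185, plus strand, overlapping an annotated exon of Mt2: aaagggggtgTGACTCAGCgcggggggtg

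The windows of Nqo1, Slc7a11 and Srxn1, the 3 transcripts that rose most, did not contain these letters. The Srxn1 window does hold TGAGTCAGC, which has G where the searched core has C, and that form was not searched. Absence of the searched letters therefore does not show that a window lacks an ARE. The windows follow the RefSeq starts, which for some genes, such as Mt2 and Txnrd1, are not the only annotated ones, so letters near other starts were not searched. The core of the MRE, TGCACNC or TGCGCNC on either strand, was found 3 times for Mt2, 2 times for Gclm, and 1 time each for Mt1 and Srxn1. Of all windows, 21.4% contain at least 1 such core and 1.26% at least 3. In Gclm 1 of the MRE cores overlaps the ARE core. The cores nearest to the starts of Mt1 and Mt2 are shown because these are the metallothioneins that zinc induces. Capitals mark the core along the plus strand, and that of Mt2 is on the opposite strand:
Mt1, chr8:94905684-94905710, with the core before the annotated gene: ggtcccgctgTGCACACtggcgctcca
Mt2, chr8:94899186-94899212, overlapping an annotated exon of Mt2: gggggagggcGTGTGCAggctctgtcc
A match of so few letters describes the sequence and is not evidence of binding.

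Among genes that govern NRF2, 6 of 9 were called higher and 1 lower, beside 25.3% and 26.0% of all tested genes. The median log2FC was 0.32 against 0.00 for all tested genes. Sqstm1, which encodes p62, a scaffold that takes KEAP1 into autophagy and is itself an NRF2 target, rose most, from 9746 ± 1058 to 27168 ± 1169 (SD, n = 3 each, log2FC 1.48, adjusted p = 8.3e-08 from limma). Nfe2l1, which encodes the related factor NRF1, had a log2FC of 0.69. Keap1, the inhibitor itself, was higher in KE too, at 2467 ± 210 against 1968 ± 28.3 (log2FC 0.32). The small MAF partners Mafk, Maff and Mafg had log2FC of 0.64, 0.38 and 0.27. Bach1, a repressor that competes with NRF2 for the same elements, was the 1 gene of the list that fell, with 1636, 1539 and 1655 in KE and 2001, 1986 and 1949.6 in NT (log2FC -0.30, adjusted p = 0.0016 from limma).

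A list of 21 further NRF2 targets had 16 called higher, none lower and 5 not called, beside 25.3% higher and 26.0% lower of all tested genes. The list median log2FC was 0.50. It was led by Trib3 (log2FC 2.04), which encodes a pseudokinase and is better known as a target of ATF4, and by Akr1b8 (1.52), an aldo-keto reductase. Hmox1, which encodes the heme-degrading heme oxygenase 1, was 18183, 19335 and 18192 in KE and 9247, 9291 and 8349.9 in NT, without overlap (log2FC 1.05, SE 0.06, adjusted p = 1.7e-07 from limma). The pentose phosphate enzymes that supply NADPH moved unequally: G6pdx and Taldo1 had log2FC of 0.50 and 0.51, Pgd 0.18 (a call lost under 5 of 14 alternatives, with an adjusted p of up to 0.121), and Tkt, at -0.10, was not called. Of the ferritin chains, Fth1 had a log2FC of 0.48, and Ftl1, at -0.02, was not called. Gstm1 (0.05) and Gstp1 (0.16) were not called, although Gstp1 was without KE replicate 3 (adjusted p = 0.022 from limma), whereas Gsta4 (1.09) was. Ferritins, glutathione transferases and aldo-keto reductases have close copies that share reads, so their values are uncertain.

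Of 22 genes of glutathione, thioredoxin and peroxide metabolism, 9 were higher, 2 lower and 11 not called, with a median log2FC of 0.13. Beside these, 25.3% of all tested genes were higher and 26.0% lower. The largest rises were those of Chac1 (2.24), which breaks glutathione down, and Prdx6 (0.98), a peroxiredoxin that also acts on phospholipids. Glrx (-0.68, adjusted p = 5.5e-06 from limma), a glutaredoxin, fell. Gpx1 (-0.20, adjusted p = 0.034 from limma), a glutathione peroxidase, was also called lower, but was not called without the trend (a constant prior variance) or without KE replicate 2, KE replicate 3 or NT replicate 2, and its adjusted p ranged up to 0.130 over the alternatives. The rise of Gpx1's relative Gpx4, which reduces lipid peroxides, was 0.77 on the log2 scale.

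**Figure D4:**
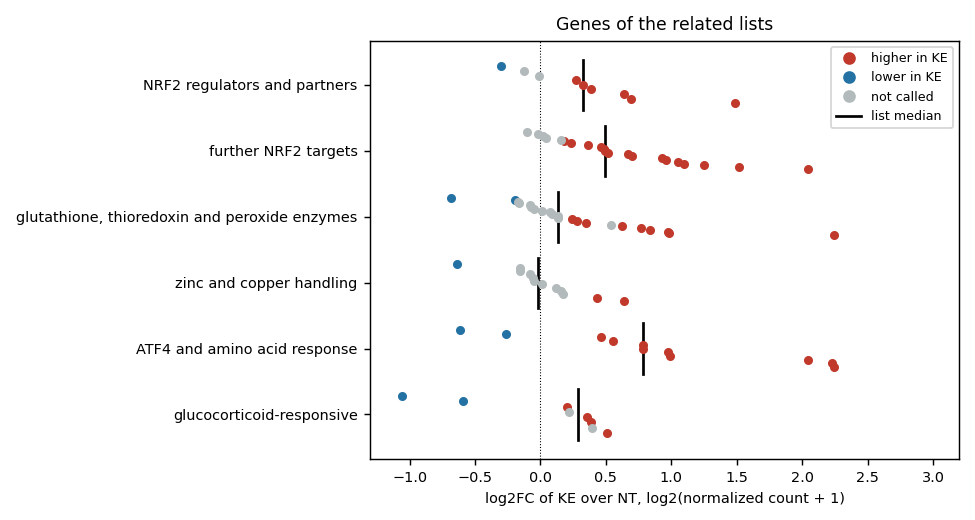
The log2FC of KE over NT (horizontal axis) of each tested gene in 6 lists of related genes, 1 point per gene, coloured by whether it was called, with a black line at the list median. The medians range from -0.02 for zinc and copper handling to 0.78 for the ATF4 list.

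Of 12 tested genes of zinc and copper handling, 2 were higher, 1 lower and 9 not called. Beside these, 25.3% of all tested genes were higher and 26.0% lower. The list median log2FC was -0.02, and its sign changed without KE replicate 3 (0.00060) or NT replicate 2 (0.018). Mtf1, the zinc sensor that drives metallothioneins, was 1301, 1016 and 1363 in KE and 1143, 1084 and 1015 in NT, which overlapped (log2FC 0.17, 95% interval -0.06 to 0.40, adjusted p = 0.192 from limma). Without KE replicate 2, its lowest KE sample, Mtf1 was called higher (adjusted p = 0.010 from limma), and over all alternatives its adjusted p ranged from 0.010 to 0.527. Slc30a1, the zinc exporter that MTF1 also drives, had a log2FC of -0.06 (95% interval -0.23 to 0.11, adjusted p = 0.531 from limma). Those called were Slc30a4 (0.63), a zinc carrier of vesicles, Ccs (0.44), the copper chaperone of superoxide dismutase, and Slc39a8 (-0.64), a zinc importer.

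Slc7a11, Chac1, Trib3 and Slc3a2 are also targets of ATF4, the factor of the integrated stress and amino acid response. Of 11 genes of that list, 9 were higher and 2 lower, with a median log2FC of 0.78, and 3 of the 11, Chac1, Trib3 and Slc3a2, also belong to the lists above. Atf4 itself rose from 6753 ± 185 to 9287 ± 289 (SD, n = 3 each, log2FC 0.46). After Chac1, Ddit3 (2.23), which encodes CHOP, had the largest rise. Psat1 (-0.61) and Phgdh (-0.26), enzymes of serine synthesis, fell. Of 8 genes that respond to glucocorticoids, 4 were higher and 2 lower, against 25.3% and 26.0% of all tested genes. Without KE replicate 1 only 2 were higher, as Nr3c1, the glucocorticoid receptor gene, and Errfi1 were then not called, and over the 14 alternatives these lost their calls in 5 and 3. Pdk4 (0.50) and Tsc22d3 (0.39), which encodes GILZ, led the rises, and Sgk1 (-1.06) and Fkbp5 (-0.60) fell. Counting each gene of the 6 lists once, 43 of 80 were higher and 8 lower, beside 25.3% higher and 26.0% lower of all tested genes. The lists were chosen with earlier results of these data known, so no conclusion is drawn from this difference.

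The transcripts whose values over the 6 samples lay nearest to those of Mt2, by Euclidean distance between deviations from each gene's mean log2 value, were Unc50 (0.068), Lamtor4 (0.070) and Tbcc (0.070). For Mt1 they were Ndufb6 (0.059), Supt4a (0.080) and Rab24 (0.092), and for Mt3 St14 (0.060), Slc5a6 (0.069) and Cox4i1 (0.069). The metallothioneins were not each other's nearest. Among the 15280 tested genes, Mt2 stood at place 29 from Mt1, with a distance of 0.131, and Mt1 at place 54 from Mt2. Mt3 stood at place 707 from Mt1 and 421 from Mt2. Seen from Mt3, Mt2 stood at place 528 and Mt1 at place 1171. The nearest to Nfe2l2 were Morn4 (0.046), Prkar1a (0.052) and Zfp59 (0.052), each with a log2FC between 0.36 and 0.38. None of the 10 transcripts was among the nearest 3 of these 4.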

How the data were processed

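The authors deposited 1 table of normalized counts per gene and sample, a signal that results from dividing gene counts by size factors. The submitters' processing notes name Trim Galore, STAR, Salmon and DESeq2. They give GRCh38, a human build, although the identifiers are those of mouse genes. The study's methods give GRCm39 for mouse and a batch adjustment in a section that lists hippocampus and spheroid samples and names astrocytes at its fold change threshold. They name no batch, and none was modelled. Depth was 24489700 to 34146300 reads by estimate. Only 74.7% to 77.6% of the low values in a sample were whole multiples of 1 read (tolerance 0.1). Reads were therefore not rebuilt, and no count test was run. The limma errors come from the spread between samples, which limma draws towards a variance shared by genes of similar level. Size factors assume that rises and falls balance over most genes.

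The log2(normalized count + 1) values entered limma 3.58.1 (R 4.3.3) with a variance trend, group as the only factor, all 3 KE and 3 NT samples and genes with a mean of at least 10 (15280 of 55357). P-values are two-sided and adjusted by Benjamini-Hochberg over all tested genes. The log2FC understates changes of low genes. Gene positions are from Gencode vM39 on GRCm39, which holds 54749 of the identifiers. The fit was tested on simulated data. The 10 genes and the lists were chosen with earlier results of these data known. Named genes are the 10, Braf, Hmox1, Keap1, Bach1, Mtf1, Slc30a1, Atf4, up to 2 called genes with the largest rise and fall per list, and the 3 nearest patterns of Mt1, Mt2, Mt3 and Nfe2l2. Other genes were named after their values were seen. Alternatives were other pseudocounts (0.5 and 5), filters (none, or a mean of at least 50), quantile and 75th percentile scaling, no trend, a replicate block, and leaving out each sample.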

Additional observations from a re-analysis of the deposited data

How the results depend on the processing

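Under the 14 alternatives, 138 of 140 values of log2FC for the 10 transcripts had the sign and the call reported above. The other 2 were those of Mt1 and Mt2 without KE replicate 3, and the cause was not tested. Leaving out each sample in turn, the log2FC lay between 0.038 and 0.17 for Mt1 and between 0.053 and 0.17 for Mt2, while those of Mt3 (0.0034 to 0.12) and Gclc (0.050 to 0.15) were not called in any of these, and 6 to 8 of the 10 transcripts were called higher. No alternative called any of the 10 lower. With the replicate block, 4 genes of glutathione, thioredoxin and peroxide metabolism were called lower. Without the trend 1 was, Gpx1 being the call lost. Leaving out each sample gave 1 to 3 of these genes called lower, with a list median of 0.090 to 0.20. It also gave 1 to 2 lower genes of zinc and copper handling. The median of that list, near 0, changed sign (-0.03 to 0.02, and -0.05 to -0.01 under the other alternatives). Among genes that respond to glucocorticoids, leaving out each sample gave 2 to 5 higher, with a median of 0.22 to 0.32. The fewest of these were called without KE replicate 1. The median of the ATF4 list was 0.77 to 0.83. Samples with the same number had correlations of 0.059, 0.066 and 0.065 between their deviations from the group means across genes. Other pairs had at most -0.010. Samples of the same number thus deviated slightly together, for a reason that was not tested. The labels do not say that the numbers mark pairs, so the main fit did not pair the samples. With the block 8046 genes were called in place of 7844. The median of all tested genes stayed within -0.01 to 0.03. The depth is known only approximately, so no counting error was given.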
